A study of Arabidopsis thaliana with 9 samples.

Results

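Plasma membrane intrinsic proteins (PIPs) are the aquaporins of the plant plasma membrane, and the genes described here are 10 PIP loci, all 5 of the PIP1 class and 5 of the PIP2 class. They were taken by locus from a raw read count table of 33602 loci, and all 10 passed the filter on low counts, which left 20668 genes. Transcripts were measured by RNA sequencing in whole seedlings of Arabidopsis thaliana, roots and shoots together, of the mutant lines emb1579-1 and emb1579-3 (3 libraries each) and of the wild type Col-0 (2 libraries, replicates 1 and 2). Both lines carry mutations in EMB1579, a nuclear protein gene that the series' design text links to root growth. Seeds of every genotype were kept in the cold for 3 days and the seedlings were collected after 6 days at 20 °C, with no other treatment given in the labels. Each line stands for a single allele, and the labels do not state the kind of mutation.

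Aquaporins form tetramers in which every subunit is a pore of its own, and PIPs let water cross the outer membrane of the cell. The family has a PIP1 and a PIP2 class. PIP2 proteins are strong water channels when expressed alone in Xenopus oocytes, whereas PIP1 proteins generally reach the plasma membrane when they assemble with PIP2 partners. In Arabidopsis, PIPs carry much of the water flow into roots and take part in leaf hydraulics, and some also pass hydrogen peroxide or carbon dioxide.

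The 8 libraries held 24.1 to 37.5 M counts, of which 12.5 to 19.0 M fell on nuclear genes. Col-0 replicate 3 was left out: it held 1.18 M counts, its correlation with any other library was at most 0.315, and it had 21 counts over the 10 PIP genes. Col-0 replicate 2 had counts at 4391 nuclear loci that were at 0 in the other 7 libraries, against 21 to 30 such loci in each of the other libraries. Its median was 3 counts over all nuclear loci at 0 in the other 7, including loci at 0 in it too. Fits without Col-0 replicate 1 leave Col-0 replicate 2 as the only Col-0 library. EMB1579 averaged 47.8 CPM (counts scaled to a common library total) in the libraries labelled emb1579-1, 1.44 CPM in emb1579-3 and 48.8 CPM in Col-0. Its level did not set the libraries labelled emb1579-1 apart from Col-0, and they are named by their label for that reason. The columns used for emb1579-3 carry a name with another number than the labels give and were assigned by elimination of names.

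Most PIP genes had lower mean levels in both mutant lines than in Col-0, and 2 of them, PIP1;3 and PIP2;2, passed the test in both. PIP2;2, a root aquaporin, had the lowest fold of the called members, at 0.619 of the Col-0 mean where the label was emb1579-1 and 0.634 of it in emb1579-3. PIP1;1 passed in the first comparison and PIP1;5 in the second, and neither passed the test of the difference between the lines (adjusted p = 0.751 and 0.61). No member was called higher in either line. Levels are CPM on TMM-scaled library totals, and calls are from edgeR's quasi-likelihood test with Benjamini-Hochberg adjustment over all 20668 genes at a threshold of 0.05.

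For emb1579-1 against Col-0, 0 of the 10 genes were higher and 3 were lower, where 8.27% of all genes tested were higher, 9.54% were lower and 17.8% were called in either direction. At an unadjusted p under 0.05, edgeR placed 0 members higher and 4 lower, where 14.5% of all genes were higher and 15.6% lower. DESeq2 called 0 members higher and 3 lower, where it called 8.45% of 22888 genes with an adjusted p higher and 8.92% lower. For emb1579-3 against Col-0, 0 of 10 were higher and 3 were lower, where 9.95% of all genes were higher, 10.3% were lower and 20.3% were called in either direction. At an unadjusted p under 0.05, edgeR placed 0 members higher and 7 lower, where 16% of all genes were higher and 16.3% lower. DESeq2 called 0 members higher and 3 lower, where it called 9.76% of the same 22888 genes higher and 9.8% lower. Of the 10, 2 were lower in both lines, as were 7.1% of all genes, and 0 were higher in both, as were 6.26%. Without Col-0 replicate 1, edgeR called 1 and 2 members lower, and with all 9 libraries 0 and 0, with 0 at an unadjusted p under 0.05. Both comparisons share the Col-0 libraries, so they are not independent of each other.

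The 10 members had a median log2 fold change of -0.23 for the label emb1579-1 and of -0.24 for emb1579-3. The medians over all genes tested were 0.0018 and -0.0024. TMM scaling centres most genes near 0, so these and the share of all genes below 0 are no separate measure. With totals only they were 0.083 and 0.062, and the members' -0.14 and -0.17. The members' medians depended on the Col-0 libraries used. They were -0.10 and -0.09 without Col-0 replicate 1, and -0.39 and -0.38 without Col-0 replicate 2. With all 9 libraries they were 0.23 and 0.25. The medians over all genes were then -0.026 and -0.028, 0.0048 and 0.0019, and 0.055 and 0.055. A negative fold change was found for 9 of 10 members in the first comparison, with PIP1;4 the exception. It was found for 8 of 10 in the second, with that gene and PIP2;8 the exceptions. Of all 20668 genes tested, 10275 and 10399 had a negative fold change. Of the 3 other PIP genes, 1 had a negative fold change in each comparison. Every mutant library lay below every Col-0 library for 6 members in each comparison, where 22.9% and 24.7% of all genes did so. No member lay wholly above Col-0 in the first comparison, where 21.8% of all genes did, and 1 did so in the second, where 24.2% of all genes did.

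**Figure D1:**
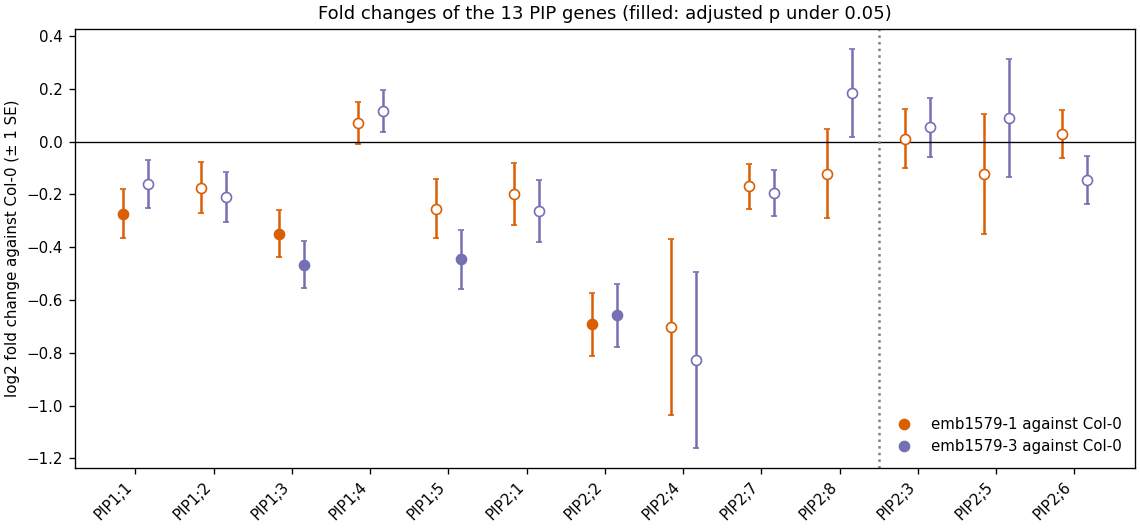
Log2 fold change against Col-0 (vertical axis, bars ± 1 SE) of the 13 PIP genes, with the 10 members left of the dotted line. Filled points passed an adjusted p of 0.05, which both of the genes called in both lines show, at -0.69 and -0.66 and at -0.35 and -0.47.

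The PIP1 class gave 2 of the 3 calls in each comparison. PIP1;1 (AT3G61430) lies at chr3:22733243-22735394 on the plus strand of TAIR10.1 and encodes a PIP1 channel found in roots and leaves. It had 66.7, 62.6 and 59.4 CPM in the libraries labelled emb1579-1, 71.4, 69.1 and 63.5 CPM in emb1579-3, and 82.6 and 69.5 CPM in Col-0. All libraries labelled emb1579-1 lay below Col-0, and those of emb1579-3 overlapped it. It fell by 0.27 on the log2 scale in the libraries labelled emb1579-1 (SE 0.09, adjusted p = 0.0454, edgeR), and it differed by -0.16 in emb1579-3 (SE 0.09, adjusted p = 0.243, edgeR). The call in the libraries labelled emb1579-1 held in 7 of 17 other settings, over which its adjusted p was 0.018 to 0.482. It was lost without Col-0 replicate 1, without replicates 2 or 3 labelled emb1579-1 and without emb1579-3 replicates 1 or 2, each left out in turn. The call was also lost with scaling by totals only (adjusted p = 0.152) and without the low-count filter (0.0734), by edgeR. So it was with the replicate block (0.0646), the pairwise fit (0.0608) and no robust estimation (0.058).

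PIP1;2 (AT2G45960, chr2:18910081-18911982, plus strand) encodes a channel that contributes to water flow in the rosette and root and to carbon dioxide uptake. It had 198, 197 and 182 CPM in the libraries labelled emb1579-1, 198, 197 and 168 CPM in emb1579-3, and 231 and 203 CPM in Col-0. All 6 mutant libraries lay below both Col-0 libraries, by a narrow margin at the lower Col-0 value. The log2 fold changes of -0.17 (SE 0.10, adjusted p = 0.236) and -0.21 (SE 0.10, adjusted p = 0.136) did not pass edgeR's test.

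PIP1;3 (AT1G01620, chr1:225665-227543, minus strand) encodes another PIP1 channel and was called in both lines. It had 74.3, 85.0 and 82.1 CPM in the libraries labelled emb1579-1, 72.8, 78.9 and 71.0 CPM in emb1579-3, and 109 and 96.5 CPM in Col-0. Both mutant lines lay below Col-0 without overlap, and the lines overlapped each other. It fell by 0.35 on the log2 scale in the libraries labelled emb1579-1 (SE 0.09, adjusted p = 0.00948, edgeR) and by 0.47 in emb1579-3 (SE 0.09, adjusted p = 0.00102, edgeR). Without Col-0 replicate 1 the first of these was -0.25 with an adjusted p of 0.126 (range 0.00168 to 0.126 over 17 settings), and the second stayed past the threshold in 17 of 17 settings.

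PIP1;4 (AT4G00430, chr4:185285-187680, minus strand) encodes a channel that also moves hydrogen peroxide. It had 91.7, 97.4 and 92.3 CPM in the libraries labelled emb1579-1, 95.5, 96.7 and 98.1 CPM in emb1579-3, and 92.0 and 86.7 CPM in Col-0. The emb1579-3 libraries all lay above Col-0, and those labelled emb1579-1 overlapped it. It was the PIP1 gene whose fold changes were above 0 in both lines, at 0.07 (SE 0.08, adjusted p = 0.609) and 0.12 (SE 0.08, adjusted p = 0.347) by edgeR, neither past the threshold.

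PIP1;5 (AT4G23400, chr4:12220641-12222468, plus strand) had 71.5, 67.8 and 72.7 CPM in the libraries labelled emb1579-1, 67.5, 64.3 and 53.9 CPM in emb1579-3, and 95.5 and 73.2 CPM in Col-0. The Col-0 pair was wide apart, and the lower Col-0 library stood just above the highest mutant library. It fell by 0.45 on the log2 scale in emb1579-3 (SE 0.11, adjusted p = 0.00931, edgeR), and it differed by -0.25 in the libraries labelled emb1579-1 (SE 0.11, adjusted p = 0.132, edgeR). The fall in emb1579-3 was -0.23 without Col-0 replicate 1, with an adjusted p of 0.195 (range 0.000329 to 0.195). Without Col-0 replicate 2, the change in the libraries labelled emb1579-1 was -0.44 and passed the test (adjusted p = 0.0207, range 0.0207 to 0.877).

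**Figure D2:**
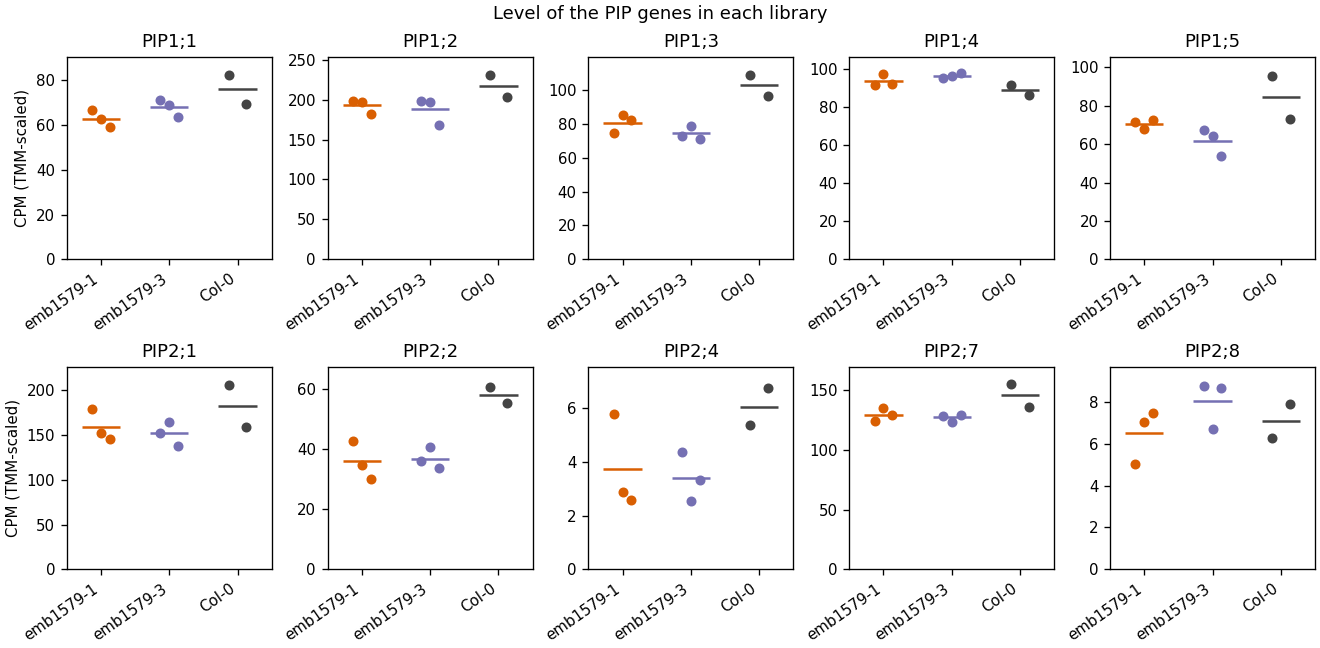
Level of each PIP gene (CPM on TMM-scaled totals, vertical axis from 0) in the libraries of the 3 genotypes, with each point a library and the bar the genotype mean. The genes called in both lines lie below the Col-0 libraries, at 30.2 to 42.7 CPM and at 71.0 to 85.0 CPM.

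In the PIP2 class, 1 member was called, and in both lines. PIP2;2 (AT2G37170, chr2:15613368-15615022, minus strand) is known for its part in root water uptake. PIP2;3 (AT2G37180, chr2:15617635-15619155, plus strand), a gene first isolated from drought-stressed plants, lies next to it in the opposite orientation, with 2612 bases between them. The pair are the most alike of all 13 PIP genes, with 813 of 858 aligned coding bases the same (94.8%), where the next pair shared 87.6%. The longest identical run was 242 bases. Of the 50-base words of the first transcript, 254 of 1296 (19.6%) also occur in the second, and 0 words of the other 11 PIP genes occur in another PIP gene. How reads that match both genes were counted is not stated by the labels or the files, so the counts of this pair carry that uncertainty.

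A window of 90 coding bases with 0 mismatches (positions 304 to 393 in one gene and 175 to 264 in the other) is shown because reads that lie wholly within it match both genes, with sequence from RefSeq TAIR10.1.
PIP2;2: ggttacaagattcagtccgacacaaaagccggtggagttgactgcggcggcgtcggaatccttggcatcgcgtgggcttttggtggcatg
PIP2;3: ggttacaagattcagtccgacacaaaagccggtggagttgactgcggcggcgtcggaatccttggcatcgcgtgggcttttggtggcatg

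The 90 coding bases that differ most (positions 532 to 621 and 403 to 492) hold 12 mismatches, marked by capitals, and reads that cover them differ between the genes.
PIP2;2: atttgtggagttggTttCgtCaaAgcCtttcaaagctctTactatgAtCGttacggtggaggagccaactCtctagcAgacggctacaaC
PIP2;3: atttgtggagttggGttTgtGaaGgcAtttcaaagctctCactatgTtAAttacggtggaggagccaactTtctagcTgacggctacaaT

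The level of PIP2;2 was 42.7, 34.8 and 30.2 CPM in the libraries labelled emb1579-1, 36.1, 40.7 and 33.7 CPM in emb1579-3, and 60.8 and 55.3 CPM in Col-0. Its mean was 35.9 ± 6.29 CPM under the label emb1579-1 (SD, n = 3), 36.8 ± 3.53 CPM in emb1579-3 (n = 3) and 58.1 ± 3.91 CPM in Col-0 (n = 2). The 6 mutant libraries all lay below both Col-0 libraries, with a gap of about the same size as the spread under the label emb1579-1. It fell by 0.69 on the log2 scale in the libraries labelled emb1579-1 (SE 0.12, adjusted p = 0.00119, edgeR) and by 0.66 in emb1579-3 (SE 0.12, adjusted p = 0.00155, edgeR). Both calls held in 17 of 17 settings of scaling, filter, tool, block and left-out library, with log2 fold changes of -0.83 to -0.58 and of -0.73 to -0.57. With Col-0 replicate 3 put back, the changes were -0.22 and -0.19 and neither was called (adjusted p = 0.948 and 0.957, edgeR).

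Its neighbour had 9.60, 9.14 and 9.39 CPM in the libraries labelled emb1579-1, 8.93, 10.3 and 9.73 CPM in emb1579-3, and 8.87 and 9.72 CPM in Col-0. The genotypes overlapped, and the log2 fold changes were 0.01 (adjusted p = 0.965) and 0.05 (adjusted p = 0.792) by edgeR. The ratio of the counts of the pair was 4.45, 3.81 and 3.22 under the label emb1579-1, 4.04, 3.93 and 3.46 in emb1579-3, and 6.86 and 5.69 in Col-0. Each mutant library had a lower ratio than each Col-0 library. The means differed by -0.72 on the log2 scale in both comparisons, with an exact two-sided permutation p of 0.2 in each. That p doubles the smaller tail, and 0.2 is the smallest value this way of counting allows for 3 libraries against 2. It was therefore fixed once the ratios did not overlap. This ratio is taken within each library and does not depend on its scaling.

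**Figure D3:**
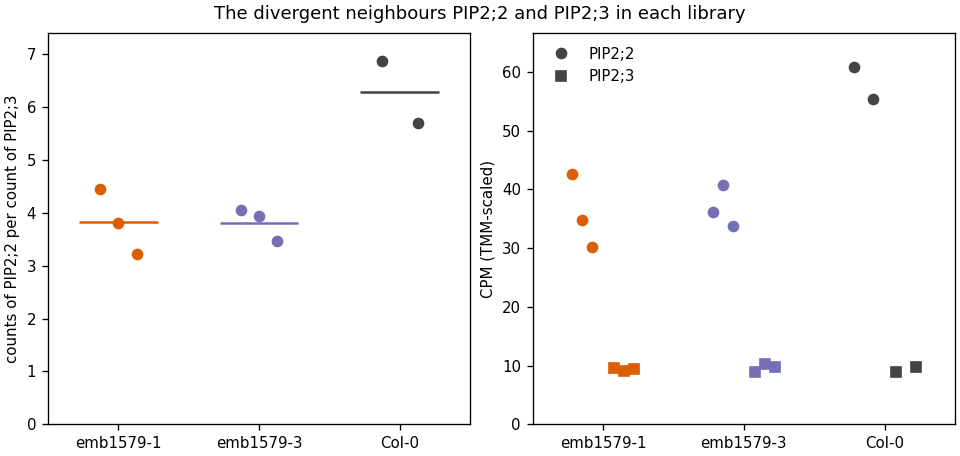
Counts of PIP2;2 per count of PIP2;3 (left, bars are means) and the CPM of both genes (right) in each library of the 3 genotypes. The ratio is 3.22 to 4.45 in the mutant libraries and 5.69 and 6.86 in Col-0, while the squares lie between 8.87 and 10.3 CPM in all libraries.

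PIP2;1 (AT3G53420, chr3:19803473-19805730, minus strand), a channel with roles in guard cells and lateral root emergence, had 179, 152 and 145 CPM in the libraries labelled emb1579-1, 153, 165 and 138 CPM in emb1579-3, and 206 and 159 CPM in Col-0. The Col-0 libraries stood wide apart, and the lower one fell within the range of both lines. The fold changes were -0.20 (SE 0.12, adjusted p = 0.273) and -0.26 (SE 0.12, adjusted p = 0.129) by edgeR. Without Col-0 replicate 2, the change in emb1579-3 was -0.45 and passed (adjusted p = 0.024, range 0.024 to 0.832), and without Col-0 replicate 1 the change in the libraries labelled emb1579-1 was 0.01.

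PIP2;4 (AT5G60660, chr5:24375368-24377206, minus strand), a channel found mainly in roots, was low, with 61 to 252 counts per library. It had 5.77, 2.89 and 2.60 CPM in the libraries labelled emb1579-1, 4.36, 2.53 and 3.32 CPM in emb1579-3, and 5.36 and 6.77 CPM in Col-0. The first library labelled emb1579-1 stood at the Col-0 level and the other 2 were lower, while emb1579-3 lay wholly below Col-0. Its fold changes of -0.70 and -0.83 were as large as those of the called PIP2 gene, but with an SE of 0.33 each they did not pass edgeR's test (adjusted p = 0.203 and 0.126). Without replicate 1 labelled emb1579-1 the first was -1.15 and was called (adjusted p = 0.000583, range 0.000583 to 0.516). It was called in 2 of 16 settings for the label emb1579-1 and in 4 of 16 for emb1579-3.

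PIP2;7 (AT4G35100, chr4:16708361-16710407, plus strand), a channel whose transcript is known to respond to salt, had 124, 135 and 129 CPM in the libraries labelled emb1579-1, 129, 123 and 130 CPM in emb1579-3, and 155 and 136 CPM in Col-0. All mutant libraries lay below Col-0, one of them by less than 1 CPM. The fold changes of -0.17 (SE 0.09, adjusted p = 0.195) and -0.19 (SE 0.09, adjusted p = 0.123) did not pass edgeR's test.

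PIP2;8 (AT2G16850, chr2:7301334-7303509, plus strand) had 5.04, 7.03 and 7.46 CPM in the libraries labelled emb1579-1, 8.75, 6.69 and 8.64 CPM in emb1579-3, and 6.26 and 7.87 CPM in Col-0. The genotypes overlapped, and the fold changes were -0.12 (SE 0.17, adjusted p = 0.689) and 0.18 (SE 0.17, adjusted p = 0.492) by edgeR. No annotated gene overlaps any of the 13 PIP genes, and each of them has 4 exons.

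Summed over the 10 genes, the level was 859, 842 and 804 CPM in the libraries labelled emb1579-1, 836, 844 and 768 CPM in emb1579-3, and 1043 and 894 CPM in Col-0. Every mutant library was below both Col-0 libraries. The mean of 835 ± 28.2 CPM under the label emb1579-1 (SD, n = 3) was 13.8% lower, and that of 816 ± 41.7 CPM in emb1579-3 (n = 3) was 15.8% lower, than the 969 ± 105 CPM of Col-0 (n = 2). These sizes depended on the Col-0 library. Against Col-0 replicate 1 alone the means were 20.0% and 21.8% lower, and against Col-0 replicate 2 alone 6.65% and 8.73% lower. Replicate 2 is the library with counts at 4391 nuclear loci that were at 0 in the other libraries used. These 2 libraries cannot show which lies nearer to the usual Col-0 level. Both classes had lower means in both lines. The PIP1 genes summed to 500 ± 10.8 CPM under the label emb1579-1, 489 ± 29.5 CPM in emb1579-3 and 570 ± 57.1 CPM in Col-0. The PIP2 members summed to 334 ± 20.7 CPM under the label emb1579-1, 327 ± 12.6 CPM in emb1579-3 and 399 ± 48.4 CPM in Col-0. As a share of nuclear counts, the 10 genes took 0.157% to 0.165% under the label emb1579-1, 0.149% to 0.162% in emb1579-3, and 0.193% and 0.175% in Col-0, with 95% Wilson intervals from 0.147% to 0.195% in all. Since these are bulk libraries, fewer cells of a type and less RNA per cell cannot be told apart.

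Of the summed member CPM, PIP1;2 held 23.1% under the label emb1579-1, 23.0% in emb1579-3 and 22.5% in Col-0. PIP2;1 held 19.0% under the label emb1579-1, 18.6% in emb1579-3 and 18.7% in Col-0. These abundant members kept similar shares. PIP2;2 held 4.29% ± 0.618 under the label emb1579-1, 4.51% ± 0.27 in emb1579-3 and 6.01% ± 0.25 in Col-0 (SD). The share of PIP1;4 was 11.2% ± 0.488 under the label emb1579-1, 11.9% ± 0.768 in emb1579-3 and 9.26% ± 0.618 in Col-0. No test was made of these shares.

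Per kilobase of exon, PIP1;2 was the most abundant in all 3 genotypes, followed by PIP2;1 and PIP2;7. Their levels were 121, 101 and 80.8 CPM per kb under the label emb1579-1, 118, 96.5 and 79.4 in emb1579-3, and 136, 116 and 90.9 in Col-0, where the first 2 overlapped. The other PIP1 genes and PIP2;6 formed a middle band of 40.4 to 66.2 CPM per kb. Within that band many neighbours overlapped in their library values. PIP2;2 had 26.7 CPM per kb under the label emb1579-1, 27.4 in emb1579-3 and 43.2 in Col-0. In Col-0 its libraries overlapped those of PIP1;1, PIP1;4 and PIP2;6, whereas in the mutants they lay below the band without overlap. The other 4 PIP2 genes were the lowest, at 2.09 to 7.93 CPM per kb.

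**Figure D4:**
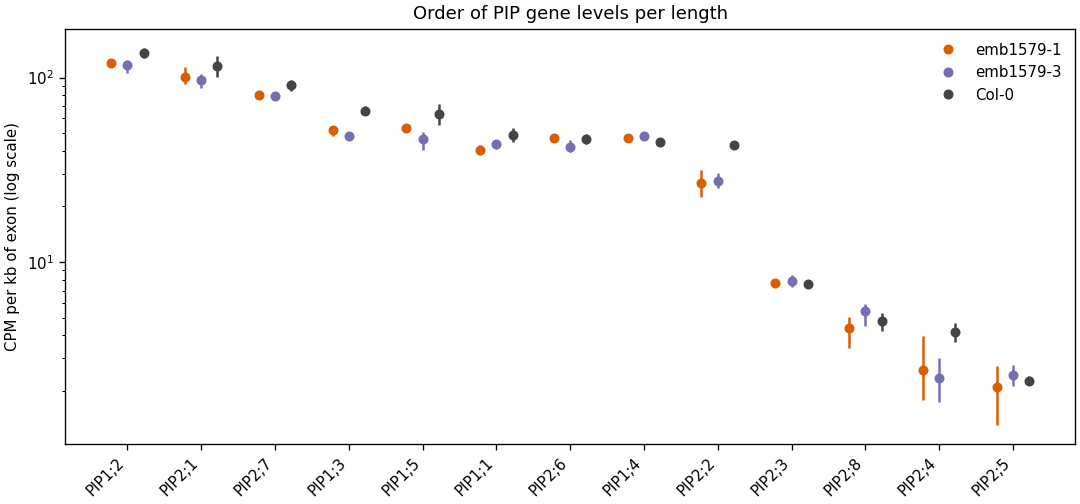
Level per kilobase of exon (CPM per kb, log scale) of 13 PIP genes in the 3 genotypes, ordered by Col-0, with points at the mean and lines from the lowest to the highest library. The leftmost gene has 121, 118 and 136 CPM per kb and the rightmost 2.28 in Col-0.

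Between the lines, 0 members were called higher and 0 lower in emb1579-3 against emb1579-1, where 0.416% of all genes were called higher, 0.402% lower and 0.818% in either direction. At an unadjusted p under 0.05 edgeR also gave 0 in either direction, where 4.56% of all genes were higher and 4.76% lower. DESeq2 gave 0, where it called 0.875% of 19769 genes higher and 0.971% lower. The members' log2 fold changes ran from -0.19 for PIP1;5 to 0.31 for PIP2;8, with a median of -0.03. The adjusted p of these was 0.61 and 0.569 by edgeR. For 1 member, the first of these, the emb1579-3 libraries all lay below the libraries labelled emb1579-1, which 7.56% of all genes did. For 0 members they all lay above, which 7.43% did.

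**Figure D5:**
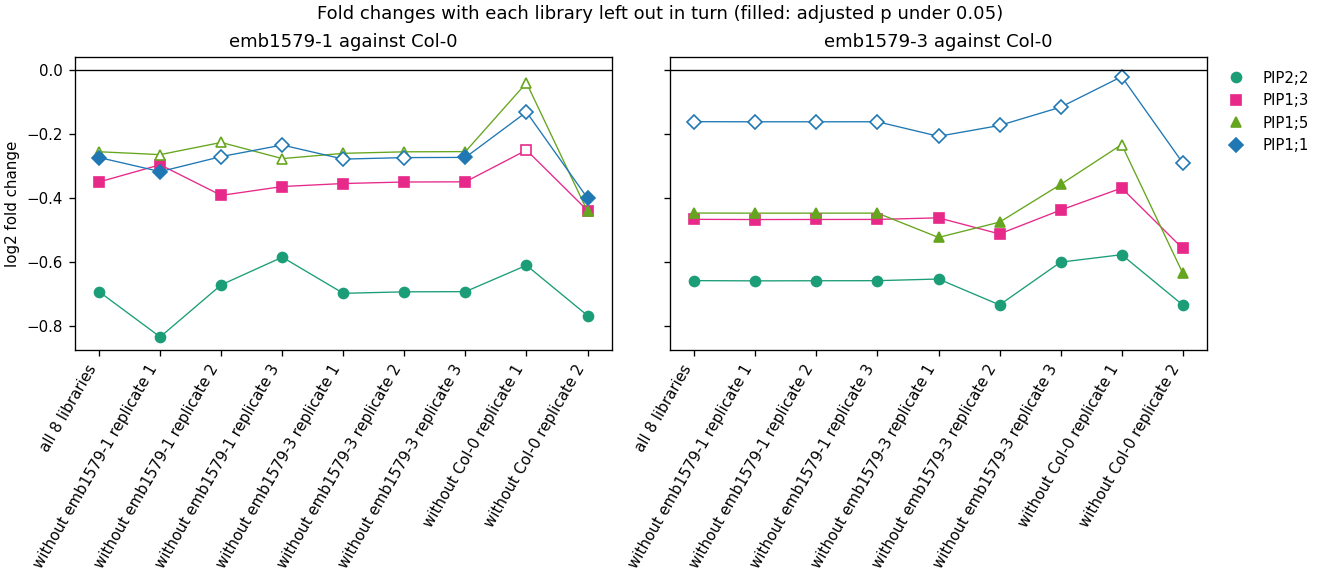
Log2 fold change against Col-0 of the 4 PIP genes called in either comparison (vertical axis) with each library left out in turn (horizontal axis), with filled points past an adjusted p of 0.05. Leaving out Col-0 replicate 1 moves the PIP1 genes toward 0. The lowest line varies too but stays at or below -0.57 throughout.

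The upstream sequence is shown for the genes called in both lines and for the neighbour of one of them, which was not called. Windows are the 250 bases before the annotated transcript start in TAIR10.1, written on the gene's strand, at chr2:15615023-15615272 (minus), chr2:15617385-15617634 (plus) and chr1:227544-227793 (minus). Capitals mark matches to the motifs searched on both strands.
PIP2;2: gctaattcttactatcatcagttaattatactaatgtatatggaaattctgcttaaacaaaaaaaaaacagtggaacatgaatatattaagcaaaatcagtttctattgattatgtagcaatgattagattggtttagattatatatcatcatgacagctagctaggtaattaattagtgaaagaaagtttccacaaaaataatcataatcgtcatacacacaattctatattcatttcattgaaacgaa
PIP2;3: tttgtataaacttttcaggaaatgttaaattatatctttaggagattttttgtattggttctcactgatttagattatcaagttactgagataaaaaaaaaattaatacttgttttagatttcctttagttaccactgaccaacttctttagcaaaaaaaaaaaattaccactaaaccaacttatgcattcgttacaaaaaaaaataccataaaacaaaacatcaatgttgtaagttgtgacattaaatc
PIP1;3: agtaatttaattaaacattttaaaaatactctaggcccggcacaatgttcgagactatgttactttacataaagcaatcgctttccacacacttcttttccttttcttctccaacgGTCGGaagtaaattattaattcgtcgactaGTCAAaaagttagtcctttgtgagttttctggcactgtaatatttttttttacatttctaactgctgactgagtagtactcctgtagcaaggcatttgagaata

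The motifs were the G-box CACGTG, the DRE core CCGAC, the W-box core TTGAC and the GCC box GCCGCC, and their letters do not overlap in the PIP1;3 window. Of the 10 members, 0 held the G-box, 1 the DRE core (PIP1;3), 5 the W-box core and 0 the GCC box. Among 27443 windows of that length upstream of genes, 6.49% held the G-box, 12.0% the DRE core, 44.9% the W-box core and 1.87% the GCC box. The neighbours held none of the 4, and the longest run of bases shared by their upstream windows was 11.

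Of the rest of the family, PIP2;5 and PIP2;6 were not called in either line. Over all 13 PIP genes, the median log2 fold changes were -0.17 and -0.19. PIP2;5 averaged 3.74 CPM in the libraries labelled emb1579-1, 4.36 CPM in emb1579-3 and 4.07 CPM in Col-0, with adjusted p values of 0.773 and 0.83 by edgeR. PIP2;6, a channel of the rosette vasculature, averaged 102 CPM under the label emb1579-1, 90.1 CPM in emb1579-3 and 99.6 CPM in Col-0, with adjusted p values of 0.878 and 0.284 by edgeR.

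The tonoplast aquaporins (TIPs) carry water across the vacuole membrane. Of 6 TIP genes tested out of 10 listed, 0 were higher and 3 lower for the label emb1579-1, and in emb1579-3 the counts were 0 and 5, against the 9.54% and 10.3% of all genes called lower. Without Col-0 replicate 1, 2 of 7 tested were lower in each line, of which 1 and 2 were among the genes called with it. Without emb1579-3 replicates 2 or 3, the count in emb1579-3 was 3 or 2. The median log2 fold change of the 6 was -0.43 and -0.46. TIP2;1, TIP2;2 and TIP2;3 were lower in both, with log2 fold changes of -0.43, -0.57 and -2.15 under the label emb1579-1 and of -0.87, -0.56 and -1.83 in emb1579-3. Of 7 tested NIP genes, 1 was higher and 1 lower in each line. NIP6;1, a boron channel, had log2 fold changes of 0.68 and 0.73, and NIP7;1 of -2.21 and -2.71, the last on 0 to 18 counts per library. In 16 other settings the calls of the boron channel held 9 and 13 times and those of the last gene 8 and 12 times. Of 3 tested SIP genes, 0 were called for the label emb1579-1 and 1 (SIP1;2, 0.68) was higher in emb1579-3, a call that held in 8 of 16 settings.

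Of 14 genes that regulate PIP traffic, degradation or activity, 0 were higher and 1 lower under the label emb1579-1, and the counts for emb1579-3 were 0 and 3. Of all genes tested, 9.54% and 10.3% were called lower, and 17.8% and 20.3% in either direction. No result about the list is read from these counts. The median log2 fold changes were 0.0043 and -0.025. With each library left out in turn, the numbers lower were 0 to 1 and 1 to 4. RMA2, a membrane ubiquitin ligase gene, was the one in the first comparison (-0.51, adjusted p = 0.0352, edgeR), named after its value was seen, as were the next 3. In emb1579-3 these were RMA1 (-0.61, adjusted p = 0.00389), QSK1 (-0.26, adjusted p = 0.0374) and HCR1 (-0.50, adjusted p = 0.00977) by edgeR. RMA1 encodes a ligase that acts on PIPs in the endoplasmic reticulum, QSK1 a receptor kinase and HCR1 a regulator of root hydraulic conductivity. None was called in both lines. The calls held in 11 of 16 other settings for RMA2, 16 of 17 for RMA1, 10 of 17 for QSK1 and 15 of 16 for HCR1.

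Markers of other tissues were read beside the PIP values. Over all genes tested, 9.54% and 10.3% were called lower, and 17.8% and 20.3% in either direction. Of 5 xylem markers, 4 were lower in each line, with a summed level of 55.6 to 64.5 CPM in the libraries labelled emb1579-1, 53.6 to 62.3 CPM in emb1579-3, and 78.5 to 84.7 CPM in Col-0. Without Col-0 replicate 1 the number was 2 in each line, as it was for the label emb1579-1 without its replicate 3 and for emb1579-3 without its replicate 2. Of 4 endodermis markers, 1 was lower in each line. The summed level of all 4 was 19.9 to 25.6 CPM under the label emb1579-1 and 19.3 to 25.2 CPM in emb1579-3. In Col-0 it was at least 25.9 CPM. The called marker was CASP1, with log2 fold changes of -1.21 and -1.06. SCR was at 0.04 and 0.08, MYB36 at -0.02 and 0.08, and ESB1 at 0.22 and -0.65, none of them called. Root cortex markers were lower for 0 of 2 and then 1 of 2. The summed level of these 2 was 47.4 to 58.6 CPM under the label emb1579-1 and 40.5 to 47.6 CPM in emb1579-3. In Col-0 it was 57.8 to 63.4 CPM. Nearly all of it came from the marker PEP, with log2 fold changes of -0.21 and -0.49. The marker CO2 went the other way, at 0.73 and 0.10, without a call. Root hair (3), root cap (3) and guard cell (2) markers gave no call, phloem gave 1 of 2 and then 0 of 2, and leaf mesophyll gave 1 of 4 in each line. All 25 markers had counts in every library and none was at 0, so root and leaf were both represented. Their part in the PIP result was not tested.

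Profiles over the 8 libraries were compared with the summed level of the 10 members, by Euclidean distance of centred log2 CPM among 9108 candidates. The 5 closest genes were PSBP-1 (0.0741), ACX2 (0.0764), PSAE-1 (0.089), AT3G48200 (0.0904) and AT3G06170 (0.099). Among the members, PIP1;2 lay closest to the sum at 0.105 and PIP2;4 farthest. Like distances say nothing of shared function.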

How the data were processed

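Whole-seedling RNA of emb1579-1 and emb1579-3 (3 libraries each) and Col-0 was compared by RNA-seq. The authors deposited whole-number counts per locus for 9 libraries. Per the submitters' processing notes, FastQC, HISAT2, Cufflinks and Cuffdiff were used with TAIR10. No source used here states the counter, the strand option or how reads shared by genes were handled. Symbols, exon lengths and sequences came from RefSeq TAIR10.1. Columns of emb1579-3 were assigned by elimination of names.

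The 8 libraries without Col-0 replicate 3 were tested in edgeR 4.0.16 (R 4.3.3) with TMM scaling, its expression filter and a robust quasi-likelihood fit, with 1 coefficient per genotype and Benjamini-Hochberg adjustment over 20668 genes. Biological variation was 0.0904 (common coefficient) on 5 residual degrees. The SE of a fold change is its size over the root of F. p-values cover the spread between these libraries, which the series' design text calls biological replicates. Library totals ran from 24.1 to 37.5 M counts. The Wilson intervals of shares cover counting error only.

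Alternatives were another scaling, another filter, DESeq2 1.42.0, a replicate block, pairwise fits, each library left out, and all 9 libraries. The summed level against each Col-0 library alone was added after the data were seen. Scripts were tested on simulated data. Members, lists and tests were chosen with earlier results of these data known. Named genes are the 10 members, EMB1579, the other PIPs, list genes called alike in both lines and the 5 nearest profiles. SIP1;2, RMA1, RMA2, QSK1, HCR1, 2 further TIP genes and the endodermis and cortex markers were named after values were seen. The number of columns mapped to no sample was 0.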

Additional observations from a re-analysis of the deposited data

Results flagged for a closer look

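TIP2;1, a tonoplast aquaporin gene, was flagged because the lines differed by the test of that difference. It had 72.4, 63.2 and 62.5 CPM in emb1579-3, against 84.2, 98.7 and 84.7 CPM in the libraries labelled emb1579-1, and 134 and 106 CPM in Col-0, so the lines did not overlap. The log2 fold change of emb1579-3 against emb1579-1 was -0.43 (SE 0.10, adjusted p = 0.0429, edgeR), and it passed in 11 of 17 other settings, over which it was -0.51 to -0.35. No PIP gene was flagged by that test.

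EMB1579 was flagged for the same reason. It averaged 1.44 CPM in emb1579-3 and 47.8 CPM in the libraries labelled emb1579-1, a log2 fold change of -5.04 (SE 0.15, adjusted p = 2.15e-12, edgeR).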

How the results depend on the processing

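Across 17 settings other than the 9-library fit, the 10 PIP genes kept direction and side of the threshold in 474 of 504 values. Of the rest, 12 lost the call, 8 gained it and 10 reversed. Most of the 504 values belong to genes not called, where the same side means still not called. The calls held in 7 of 17 settings for PIP1;1 (label emb1579-1) and 16 for PIP1;5 (emb1579-3). Those of PIP1;3 held in 16 and 17, and those of PIP2;2 in 17 and 17. With each library left out in turn, the count of PIP genes lower than Col-0 was 1 to 4 in the libraries labelled emb1579-1 and 2 to 4 in emb1579-3. The value 1 came without Col-0 replicate 1. With all 9 libraries the counts were 0 and 0, with 0 at an unadjusted p under 0.05, and the numbers of all genes called fell to 53 higher and 43 lower, and to 66 and 68, against 1710 and 1972, and 2057 and 2136. The numbers of all genes higher and lower were 1021 and 1135, and 1257 and 1233, with a filter of 10 CPM, and 1189 and 3075, and 1263 and 3069, without Col-0 replicate 1. Median log2 fold changes of the members were then -0.10 and -0.09, and -0.39 and -0.38 without Col-0 replicate 2. Between the lines, all 9 libraries gave 0 higher and 0 lower of all genes, against 86 and 83. The cause was not tested.

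Same-numbered libraries of different genotypes had deviation correlations of -0.11 to 0.12. These cannot decide whether the numbers pair libraries, since libraries with different numbers were not compared in this way. With the replicate block, the PIP genes lower than Col-0 were 2 and 3, PIP1;1 in the libraries labelled emb1579-1 was at -0.23 (adjusted p = 0.0646, range 0.018 to 0.482) and EMB1579 there was at 0.00016, against 0.053 with totals only.

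With all 9 libraries, values for emb1579-1 and then emb1579-3 against Col-0 reversed to 0.20 and 0.31 for PIP1;1, 0.27 and 0.23 for PIP1;2, 0.18 and 0.066 for PIP1;3, 0.26 and 0.073 for PIP1;5, 0.36 and 0.29 for PIP2;1, and 0.36 and 0.33 for PIP2;7. They reversed to -1.81 and -1.76 for NIP6;1, -2.07 and -1.72 for SIP1;2, 0.36 and 0.17 for TIP1;1, and 0.26 and 0.15 for TIP1;2, and for emb1579-1 alone to 0.35 for EMB1579, 0.035 for QSK1 and 0.21 for RMA1. With 1 library left out, small values changed sign. Between the lines they ran from -0.080 to 0.035 for PIP1;2, -0.13 to 0.029 for PIP2;1, -0.073 to 0.18 for PIP2;2, -0.35 to 0.32 for PIP2;4 and -0.055 to 0.0069 for PIP2;7. For emb1579-1 against Col-0 they ran from -0.38 to 0.011 for PIP2;1, -0.040 to 0.073 for PIP2;3, -0.35 to 0.12 for PIP2;5, -0.066 to 0.13 for PIP2;6, -0.26 to 0.050 for PIP2;8 and -0.33 to 0.19 for RMA1, and for emb1579-3 from -0.0043 to 0.18 for PIP2;5. Limits are the 2 Col-0 libraries, the neighbours that share sequence, and the low counts of 3 PIP2 genes.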
